A study of Homo sapiens with 8 samples.

Results

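The genes described here are 10 long noncoding RNAs known from work on cancer: H19, MALAT1, NEAT1, HULC, SNHG1, GAS5, MEG3, PVT1, TUG1 and IGFL2-AS1. They were chosen by symbol, with earlier results of these data known. They were looked up in the deposited count table, which lists 58206 genes by Ensembl identifier. For 9 of the 10 a row was matched. HULC was matched to no row and is not analysed here. Of the 9, all but MEG3 passed the filter on low counts and were among the 14289 genes tested.

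Long noncoding RNAs are transcripts longer than small RNAs that are not translated into a known protein. Several act in the nucleus, where MALAT1 accumulates in the nuclear speckles that store splicing factors and NEAT1 forms the core of paraspeckles. SNHG1 and GAS5 are spliced host transcripts whose introns give small nucleolar RNAs (snoRNAs), guides for the chemical modification of other RNAs, and H19 and MEG3 are imprinted, normally made from the maternal chromosome only. In liver, H19 is abundant before birth and low in the adult, and it can reappear in hepatocellular carcinoma.

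RNA was sequenced from Alexander1 cells, an established epithelial line from a human hepatocellular carcinoma. The 4 parental libraries carry the genotype label wt (Axin1 -): per the labels, these cells make an Axin1 without the region that binds the kinase GSK3, so that Wnt signalling is constantly active. The 4 libraries labelled Axin1 + come from cells given an Axin1 plasmid by retrovirus and then selected as clones with hygromycin B; how many clones were used is not stated. The protocol field lists this transfer for all 8 samples, but only the Axin1 + genotype names the plasmid, and all cells grew in the same serum-containing medium. The labels do not say whether replicates were separate cultures, so p-values measure the spread between these libraries, which may be technical.

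Libraries held 11232951 to 15263761 counts in the parental group and 12372436 to 26400782 in the Axin1+ group. Levels are counts-per-million values (CPM), relative to library totals scaled by the TMM method, in which 3 counts came to 0.108 to 0.267 CPM. AXIN1 itself stood at 52.4 ± 3.49 CPM in the parental libraries and 45.4 ± 5.13 in the libraries labelled Axin1+ (SD, n = 4, as in all such values below). Its log2 fold change was -0.21 with an SE of 0.12 (edgeR quasi-likelihood test, adjusted p = 0.267). Its row was therefore not higher in the labelled libraries, and every direction below rests on the labels. Log2 fold changes are Axin1+ over parental, and a gene is called where its Benjamini-Hochberg adjusted p is under 0.05.

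The first principal component of log2 CPM separated the labels and carried 55.9% of the variance. Some libraries stood apart: parental replicate 1, at 61.5, and Axin1+ replicate 2, at 25.0, were alone above 0 on the second component (21.0% of the variance), and Axin1+ replicate 1 lay nearest the parental group on the first. All 12 hepatocyte and liver cancer markers had a mean of at least 1 CPM. Their summed levels were 25020 to 29367 CPM in parental and 18564 to 22220 CPM in Axin1+ libraries. SERPINA1 was the largest part of these sums, with means of 16130 and 10358 CPM. Of the 12, 2 were called higher (FGB and TTR) and 4 lower (APOA2, SERPINA1, TF and GPC3). Of all tested genes 19.2% were called, 10.4% higher and 8.77% lower. Of the markers of other cells, 1 of 6 for fibroblasts, 1 of 4 for endothelium and 0 of 4 for immune cells had a mean of at least 1 CPM. The endothelial sum was 4.58 to 6.77 CPM in parental and 34.1 to 58.5 CPM in Axin1+ libraries and was nearly all PECAM1, while VWF, CDH5 and KDR were at or near 0; the part of such cells in the results was not tested. In bulk RNA, fewer cells of a type and less RNA per cell cannot be told apart.

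IGFL2-AS1 was higher in the Axin1+ libraries, 42.5-fold in the means, and H19 and PVT1 were lower, 10.2-fold and 2.11-fold. These 3 of the 8 tested long noncoding RNAs were called, against 19.2% of all tested genes (10.4% higher, 8.77% lower) and 12.2% of the 1462 tested genes annotated as long noncoding (4.99% higher, 7.18% lower). GAS5, SNHG1, MALAT1, NEAT1 and TUG1 were not called. The median log2 fold change of the 8 was -0.52, beside 0.0026 over all tested genes and -0.038 over the long noncoding ones. Ranges over the 4 libraries did not overlap between labels for IGFL2-AS1, higher, and for SNHG1 and PVT1, lower, against 23.9% of all tested genes (12.7% higher, 11.2% lower). Because the genes were chosen with earlier results of these data known, these shares and medians do not test the 8 as a set. The same holds for the lists of related genes below.

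**Figure D1:**
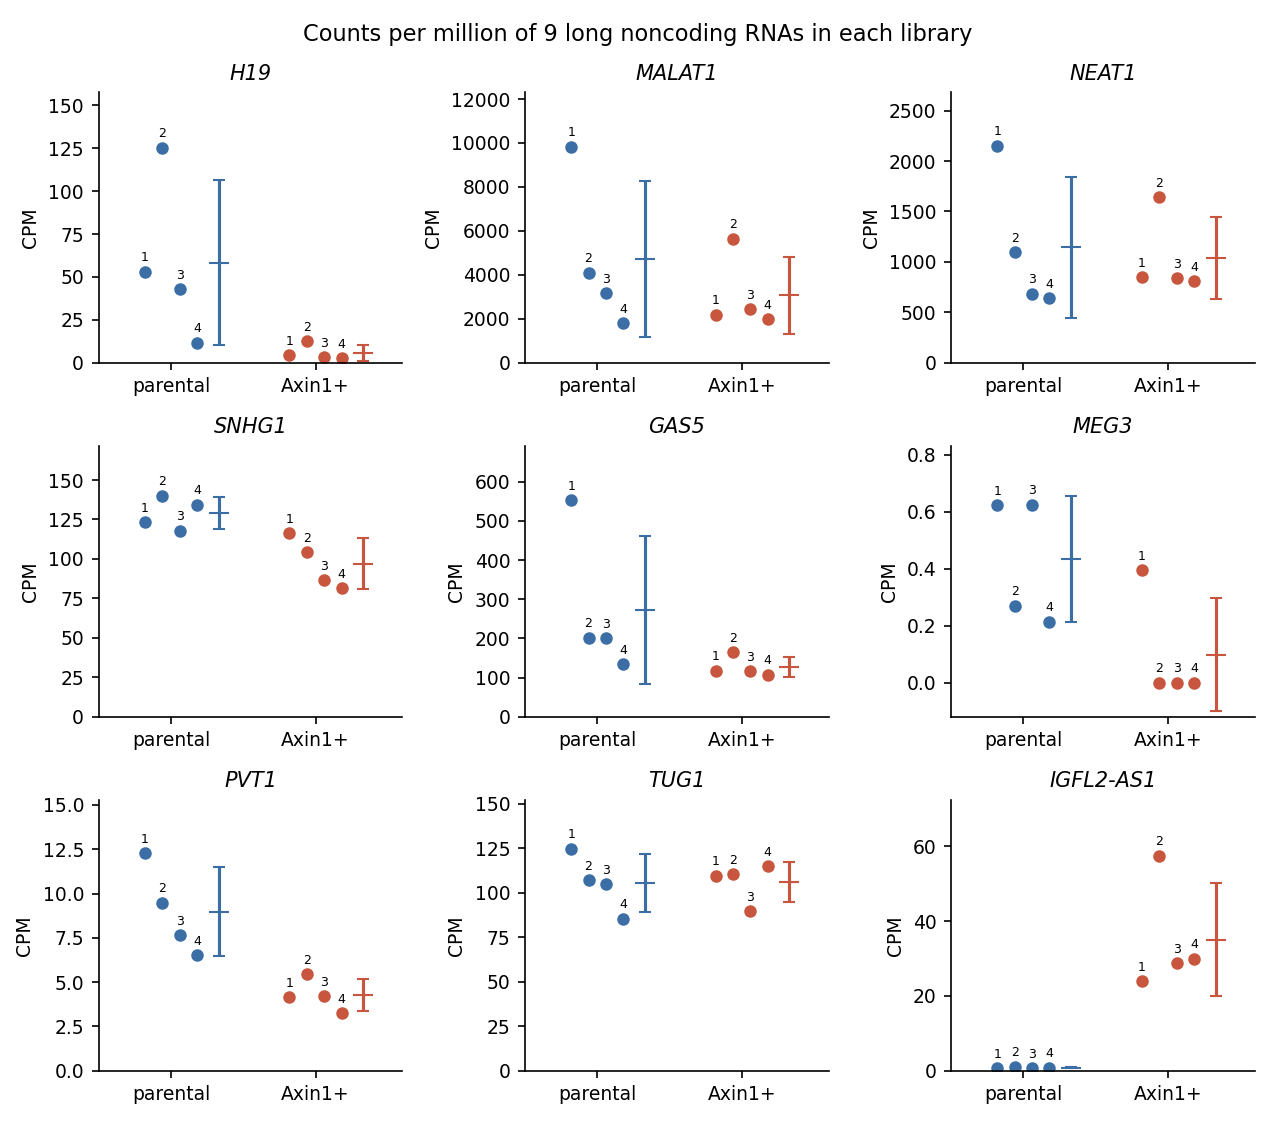
Levels in CPM (vertical axes, linear) of the 9 matched long noncoding RNAs in each library, with replicate numbers above the points; bars give the mean ± SD of the 4 libraries of a label. IGFL2-AS1 lay at 0.712 to 1.08 CPM in parental and 24.0 to 57.5 CPM in Axin1+ libraries, whereas parental replicate 1 alone held 9834 CPM of MALAT1 and 553 CPM of GAS5.

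IGFL2-AS1 lies on the minus strand of chromosome 19 (GRCh38, chr19:46189166-46203083) and is named for its antisense position to IGFL2, a gene of the IGF-like family of small secreted proteins. The first 150 bases of its longest annotated transcript, of 1037 bases in GENCODE 29, are shown because it had the largest difference of the genes described; no part is set in capitals.
IGFL2-AS1: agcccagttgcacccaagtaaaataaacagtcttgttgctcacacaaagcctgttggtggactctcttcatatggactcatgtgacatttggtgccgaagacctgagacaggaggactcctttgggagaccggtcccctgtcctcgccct

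The parental libraries held 0.712, 1.08, 0.713 and 0.787 CPM of IGFL2-AS1 (replicates 1 to 4; 8 to 16 counts each). The Axin1+ libraries held 24.0, 57.5, 28.7 and 30.0 CPM (583 to 768 counts). Every Axin1+ library lay far above every parental one, and Axin1+ replicate 2 was the highest. The log2 fold change was 5.37 (SE 0.34, 95% interval 4.62 to 6.13, edgeR adjusted p = 8.4e-06). The coding genes of the same family, looked up after these values were seen, were almost silent: over the 8 libraries together IGFL1 had 3 counts, IGFL2 had 4 and IGFL4 had 39. IGFL3 had 0, which allows up to 3. The nearest tested genes moved little beside it: CCDC61, 167848 bases away, had a log2 fold change of 0.38 (SE 0.28, adjusted p = 0.365), and PPP5C, a phosphatase gene 143911 bases away, rose by 0.51 (SE 0.13, adjusted p = 0.0189).

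H19 lies on chromosome 11 (chr11:1995176-2001470, minus strand). It is a maternally expressed RNA next to the paternally expressed growth factor gene IGF2, and one of its exons holds the hairpin of the microRNA miR-675. The mature sequences, from RefSeq on GRCh38.p14, are shown because H19 is their precursor RNA; the seed, bases 2 to 8, is in capitals, and the seeds of the arms differ.
hsa-miR-675-5p: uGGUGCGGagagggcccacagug
hsa-miR-675-3p: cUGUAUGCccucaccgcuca

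H19 stood at 53.0, 125, 42.8 and 11.7 CPM in parental replicates 1 to 4. In the Axin1+ libraries it stood at 4.30, 12.6, 3.30 and 2.54 CPM. The levels were lower in the Axin1+ libraries, but the groups touched: parental replicate 4, the lowest of its label, lay just under Axin1+ replicate 2. H19 fell by 3.42 on the log2 scale (SE 0.69, 95% interval -4.93 to -1.91, edgeR adjusted p = 0.0071). The size of the difference turned on single libraries, being -2.70 without parental replicate 2 and -4.10 without Axin1+ replicate 2, and it was called in both cases. The microRNA gene MIR675 had 0 counts in its own row, whose bases all lie in an H19 exon, and mature microRNAs were not measured.

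H19 varied more between libraries of a label than almost any gene. Its within-label SD was 1.22 on the log2 CPM scale, larger than that of 99.4% of the 13559 genes compared, whose median was 0.272. Among parental libraries the highest level was 10.7 times the lowest, and among Axin1+ libraries 4.98 times.

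MEG3, the other imprinted RNA (chr14:100779410-100861031, plus strand), was near the detection limit. It had 7, 4, 7 and 3 counts in the parental libraries and 11, 0, 0 and 0 in the Axin1+ libraries. All of its Axin1+ counts came from replicate 1, the library nearest the parental group on the first principal component. Means were 0.433 and 0.0986 CPM, and permuting the labels exactly in all 70 ways gave a two-sided p of 0.0857, the smallest possible being 0.0286. By that test no difference in MEG3 was detected.

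The neighbours within the imprinted clusters were mostly silent. IGF2 had 3 counts over all 8 libraries and DLK1, the paternally expressed gene beside MEG3, had 5. CDKN1C, named after its values were seen and not tested, had 92. Its means were 0.338 CPM in parental and 0.960 CPM in Axin1+ libraries. Of 15 genes listed for the clusters, 6 were tested and 1 was called (16.7%, against 19.2% of all tested genes), with a median log2 fold change of -0.50: SLC22A18, an imprinted transporter gene, fell by 0.63 (SE 0.18, edgeR adjusted p = 0.0326). PHLDA2, an imprinted growth regulator, had a value of -0.47 (adjusted p = 0.137) and DIO3OS, an antisense RNA at the far end of the MEG3 cluster, -0.69 (adjusted p = 0.288). The count was 0 without parental replicate 2 or Axin1+ replicate 4 (edgeR; 2 of the 6 had an unadjusted p under 0.05, and DESeq2 and limma-voom each called 1) and 2 without parental replicate 1 or Axin1+ replicate 1. Without parental replicate 1, 7 genes were tested, with 1 called higher and 1 lower. Without Axin1+ replicate 1, 7 were tested, with 2 called lower. ASCL2, the nearest tested gene on the IGF2 side of H19 at 267025 bases, encodes a transcription factor known as a Wnt target in intestine and fell by 2.06 on the log2 scale, from 1.52 to 0.392 CPM (SE 0.51, adjusted p = 0.0189). On the other side MRPL23, 10654 bases from H19, had -0.16 (adjusted p = 0.659).

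MALAT1 and NEAT1 are transcribed from neighbouring loci on the plus strand of chromosome 11, at chr11:65497688-65506516 and chr11:65422774-65445540. The mature end of MALAT1 is not made by polyadenylation: an enzyme cuts the transcript after a genome-encoded run of A, releasing a small RNA shaped like a transfer RNA. That run of 13 A, in capitals, is shown from transcript MALAT1-202 (GENCODE 29) with 60 bases on each side, because the libraries were made with an mRNA kit. The capitals mark the run only, and the place of the cut after it is not marked. The annotated transcript continues for 359 bases after the run.
MALAT1: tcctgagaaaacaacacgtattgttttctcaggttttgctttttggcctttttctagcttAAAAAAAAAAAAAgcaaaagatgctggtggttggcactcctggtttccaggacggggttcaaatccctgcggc

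MALAT1 made up 0.183% to 0.880% of the counts of a library. It stood at 9834, 4095, 3151 and 1787 CPM in parental replicates 1 to 4 and at 2186, 5645, 2426 and 1984 CPM in Axin1+ replicates 1 to 4. The groups overlapped almost completely, and the highest level of each label belonged to parental replicate 1 and Axin1+ replicate 2. The log2 fold change was -0.62 (SE 0.49, 95% interval -1.70 to 0.45, adjusted p = 0.399). It was 0.02 without parental replicate 1 and -1.10 without Axin1+ replicate 2, with no call either way.

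NEAT1, like MALAT1, was highest in parental replicate 1 and next in Axin1+ replicate 2. It stood at 2152, 1096, 685 and 640 CPM in the parental libraries and at 850, 1642, 838 and 810 CPM in the Axin1+ libraries. Again the ranges overlapped, and the lowest levels were those of parental replicates 3 and 4. The log2 fold change was -0.14 (SE 0.38, 95% interval -0.98 to 0.69, adjusted p = 0.820), and 0.36 without parental replicate 1. The microRNA gene MIR612 lies in the NEAT1 exon and had 0 counts of its own.

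Genes for proteins of the bodies these RNAs help to form were read beside the 19.2% of all tested genes called; no difference between these shares was tested. Of 32 paraspeckle proteins, 31 were tested and 4 were called (12.9%; 1 higher and 3 lower), with a median of -0.02. TAF15, an RNA-binding protein, rose by 0.41 (adjusted p = 0.0210), PSPC1, a core paraspeckle protein, fell by 0.65 (adjusted p = 0.0294), and CPSF7, named after its value was seen, fell by 0.40 (adjusted p = 0.0325). The count was 1 without parental replicate 2, Axin1+ replicate 2 or Axin1+ replicate 4, and 2 without parental replicate 4 or Axin1+ replicate 3.

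Of 26 splicing factors of nuclear speckles, all were tested and 2 were called (7.69%, against 19.2% of all tested genes), with a median of -0.12. SRRM2, a scaffold of speckles, fell from 693 ± 121 to 477 ± 45.6 CPM (log2 fold change -0.54, SE 0.15, adjusted p = 0.0292). SON, the other known scaffold, rose from 341 ± 47.0 to 461 ± 31.8 CPM (0.44, SE 0.13, adjusted p = 0.0413). The kinase CLK3 had -0.41 (adjusted p = 0.0605). None of the 26 was called without parental replicate 2, parental replicate 4, or Axin1+ replicate 2, 3 or 4 (edgeR; 6 of the 26 had an unadjusted p under 0.05, DESeq2 called 5 and limma-voom 3), and 4 were called without parental replicate 1.

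SNHG1 (chr11:62851988-62855914, minus strand) and GAS5 (chr1:173863900-173868882, minus strand) are snoRNA host genes. GENCODE places 7 snoRNA genes on the exons of SNHG1 as merged over its transcripts. Their mature transcripts are known as targets of nonsense-mediated decay, and host genes of this kind often begin with C followed by a run of pyrimidines (C or T), a feature of transcripts whose translation follows growth signals. The first 60 bases of the longest annotated transcript of each, GAS5-210 and SNHG1-209, are shown with the run of C and T at the start in capitals.
GAS5: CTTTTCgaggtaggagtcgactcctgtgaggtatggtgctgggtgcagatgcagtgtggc
SNHG1: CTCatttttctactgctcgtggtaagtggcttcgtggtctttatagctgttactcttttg

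The run was 6 bases in GAS5 and 3 in SNHG1. Of the annotated transcripts, 6 of 29 for GAS5 and 1 of 25 for SNHG1 began with C and at least 4 more C or T, beside 2.41% of all 206694 GENCODE transcripts. Among the other snoRNA host genes with a RefSeq promoter window, 7 of 22 (31.8%) had a run of at least 5 at the start, beside 5.17% of all 35116 windows. On that RefSeq measure the run was 0 in GAS5 and 3 in SNHG1. The RefSeq window of GAS5, chr1:173868996-173869295, lies wholly upstream of the GENCODE gene. Its run was therefore read at another start than that of the transcript shown.

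SNHG1 stood at 123, 140, 118 and 134 CPM in parental replicates 1 to 4 and at 116, 104, 86.3 and 81.4 CPM in Axin1+ replicates 1 to 4. Every Axin1+ library lay below every parental one, though Axin1+ replicate 1 came close to parental replicate 3. The log2 fold change was -0.41 (SE 0.14, 95% interval -0.71 to -0.11) and missed the threshold (adjusted p = 0.0590). It passed with DESeq2 (adjusted p = 0.0250), without parental replicate 1 (0.0447) and without Axin1+ replicate 1 (0.0230). It was among the steadiest of the genes described, with a within-label SD of 0.187, above only 24.5% of genes.

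GAS5 stood at 553, 202, 201 and 134 CPM in the parental libraries. In the Axin1+ libraries it stood at 117, 165, 115 and 107 CPM. The groups overlapped, with parental replicate 4 below Axin1+ replicate 2, and parental replicate 1 held more than any other library. The log2 fold change was -1.11 (SE 0.37, 95% interval -1.93 to -0.29, adjusted p = 0.0584). It was -0.51 without parental replicate 1, not called, and it passed with DESeq2 (adjusted p = 0.0128) and without parental replicate 4 (0.0263). GAS5 shares 42 exon bases with GAS5-AS1 on the other strand, which had 90 counts over all libraries; the use of strand in counting is not stated.

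Without both parental replicate 1 and Axin1+ replicate 2, a setting chosen after the data were seen, 5 of the 8 long noncoding RNAs were called, against 3 with all libraries and beside 22.2% of all genes tested in that setting (12.1% higher, 10.1% lower): SNHG1 (-0.47, adjusted p = 0.0449) and GAS5 (-0.66, adjusted p = 0.0139) joined. DESeq2 on all libraries also called 5, 1 higher and 4 lower, beside 24.6% of all genes tested (12.5% higher, 12.1% lower). In a single simulated set, with 99 genes changed 2-fold and 96 changed 4-fold, 18.4% of its calls were false, against 9.20% for edgeR. Far more genes were called in the real libraries, so these false shares need not hold for them.

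Of 26 other snoRNA host genes, 24 were tested and 6 were called (25.0%, against 19.2% of all tested genes; 2 higher and 4 lower), with a median of -0.16. SNHG16 rose from 43.6 ± 4.49 to 63.9 ± 4.02 CPM (log2 fold change 0.55, SE 0.12, adjusted p = 0.0104). SNHG7 fell from 163 ± 27.0 to 95.8 ± 18.8 CPM (-0.77, SE 0.17, adjusted p = 0.0113), and SNHG17 fell from 102 ± 6.56 to 68.4 ± 12.4 CPM (-0.58, SE 0.14, adjusted p = 0.0186). All 3 had ranges that did not overlap between labels. Without parental replicate 2 or Axin1+ replicate 3 the count was 2.

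Of 20 factors of nonsense-mediated decay, which degrades host transcripts once their introns are removed, all were tested and 2 were called (10.0%, against 19.2% of all tested genes), with a median of -0.10. MAGOH, of the exon junction complex, fell by 0.63 (SE 0.15, adjusted p = 0.0152) and ETF1, the translation release factor, rose by 0.56 (SE 0.13, adjusted p = 0.0165). CASC3, also of the exon junction complex, had 0.35 (adjusted p = 0.0809). None was called without parental replicate 2, Axin1+ replicate 3 or Axin1+ replicate 4 (edgeR; 4 had an unadjusted p under 0.05, and DESeq2 and limma-voom each called 2), and 4 were called without both parental replicate 1 and Axin1+ replicate 2.

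PVT1 spans 306721 bases of chromosome 8 (chr8:127794533-128101253, plus strand) downstream of the oncogene MYC, with which it is often amplified, and it holds 4 microRNA genes, 1 exonic and 3 intronic. It stood at 12.3, 9.48, 7.66 and 6.51 CPM in parental replicates 1 to 4 and at 4.16, 5.45, 4.19 and 3.24 CPM in Axin1+ replicates 1 to 4. Every Axin1+ library lay below every parental one. PVT1 fell by 1.08 on the log2 scale (SE 0.25, 95% interval -1.63 to -0.54, edgeR adjusted p = 0.0136).

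MYC, the nearest tested gene to PVT1 at 53099 bases, stood at 36.3, 65.7, 66.7 and 86.6 CPM in the parental libraries and at 56.8, 36.2, 62.1 and 48.5 CPM in the Axin1+ libraries. Its ranges overlapped, and its log2 fold change was -0.32 (SE 0.24, adjusted p = 0.379). Within each label the library with the most PVT1, parental replicate 1 and Axin1+ replicate 2, held the least MYC. On the far side CYRIB, 1738340 bases away, had -0.07 (adjusted p = 0.828).

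TUG1 (chr22:30969245-30979395, plus strand), a widely expressed RNA first described in retina, had the fold change closest to 0 of the 8 tested. It stood at 125, 107, 105 and 85.3 CPM in the parental libraries and at 110, 110, 89.6 and 115 CPM in the Axin1+ libraries. The groups overlapped, with parental replicate 4 the lowest and parental replicate 1 the highest. The log2 fold change was 0.0087 (SE 0.14, adjusted p = 0.973), with a 95% interval of -0.30 to 0.31. Its neighbour MORC2, 947 bases away, had -0.03 (adjusted p = 0.867), and SMTN, on the other side, -0.43 (adjusted p = 0.0751). TUG1 shares exon bases with AC004542.1 and AC004542.2 on the other strand, which had 3 and 13 counts over all libraries.

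**Figure D2:**
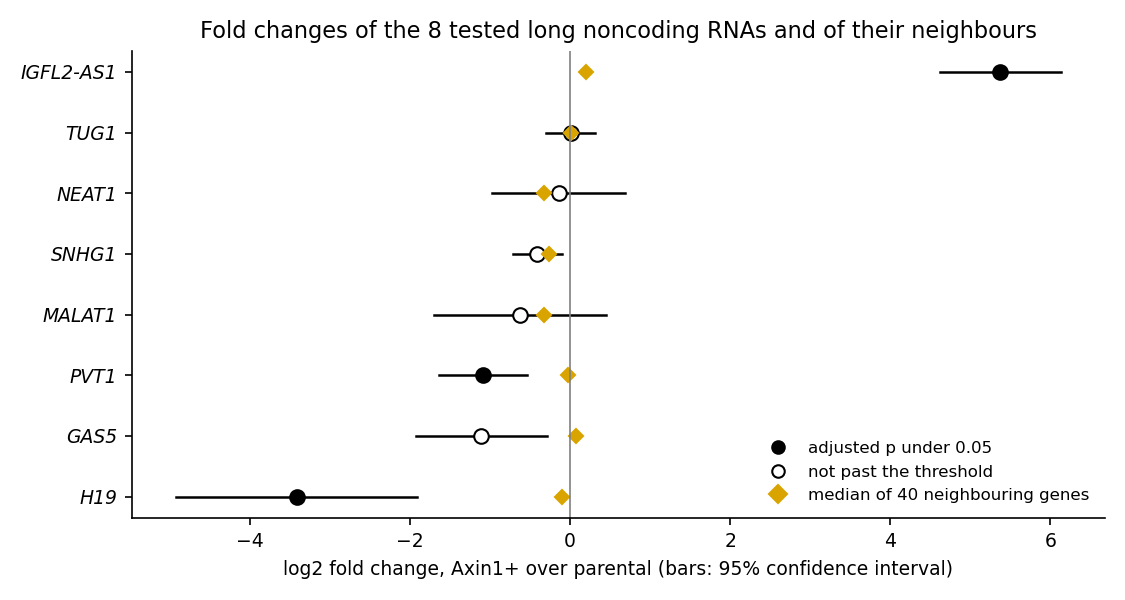
Log2 fold change of the 8 tested long noncoding RNAs (circles, horizontal axis, Axin1+ over parental, with 95% intervals; filled where the adjusted p is under 0.05) and the median of the 40 tested genes nearest to each (diamonds). IGFL2-AS1 (5.37), H19 (-3.42) and PVT1 (-1.08) lie away from neighbours with medians of 0.20, -0.10 and -0.03, whereas SNHG1 (-0.41) lies near its neighbours' -0.27.

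Levels of different genes were compared per kilobase of annotated exon, on the scale of CPM per kilobase. The length merges the exons of all annotated transcripts of a gene. It is 3631 bases for GAS5 and 5493 for PVT1, whose longest transcripts have 1698 and 1699 bases. A shorter length would raise a level, so the order below holds for this length only, and no other was tried. In the parental libraries MALAT1 was highest (534 ± 401), followed by GAS5 (75.0 ± 52.2), NEAT1 (50.2 ± 30.9), SNHG1 (34.3 ± 2.69), H19 (20.1 ± 16.6) and TUG1 (10.4 ± 1.59). From GAS5 to TUG1 each range overlapped the next, so that order is not settled by these libraries. PVT1 (1.64 ± 0.458), IGFL2-AS1 (0.470 ± 0.101) and MEG3 (0.0186 ± 0.0095) came below, each apart from the next. In the Axin1+ libraries MALAT1 (347 ± 196) again stood alone, and NEAT1 (45.5 ± 17.8), GAS5 (34.7 ± 7.16), SNHG1 (25.8 ± 4.30) and IGFL2-AS1 (20.0 ± 8.67) overlapped in sequence. TUG1 (10.4 ± 1.10) came next, then H19 (1.97 ± 1.62) and PVT1 (0.775 ± 0.165), which overlapped. By this length IGFL2-AS1 ranked 8 of 9 in parental and 5 of 9 in Axin1+ libraries, and H19 ranked 5 and 7.

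MALAT1, NEAT1 and GAS5 varied together between libraries of a label. Their within-label SDs on the log2 CPM scale were 0.874, 0.667 and 0.645, larger than those of 97.6%, 93.7% and 93.0% of genes. After each label's mean was subtracted, log2 CPM over the 8 libraries gave Pearson's r of 0.967 for MALAT1 with NEAT1, 0.954 with PVT1 and 0.938 with GAS5, and 0.920 for NEAT1 with GAS5. SNHG1, a host gene like GAS5, showed no such relation to it (r = -0.049) or to MALAT1 (0.064). These values describe points that share library preparation and sequencing, and parental replicate 1 and Axin1+ replicate 2 carry much of the spread. H19 did not share the pattern fully: its highest parental library was replicate 2, at 1.55 log2 units above the parental mean. Its lowest was replicate 4, at -1.86, as it was for MALAT1, NEAT1 and GAS5.

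**Figure D3:**
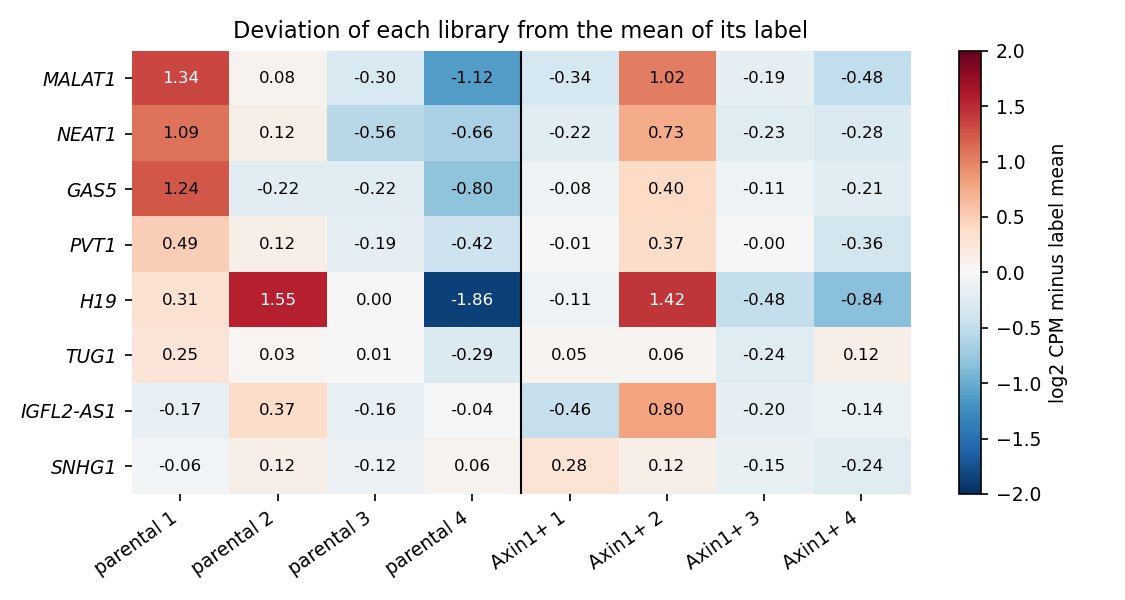
Log2 CPM of each tested long noncoding RNA (rows) in each library (columns) minus the mean of its label; red is above and blue below that mean, on a scale from -2 to 2. Parental replicate 1 lies 1.34, 1.09 and 1.24 above the mean for MALAT1, NEAT1 and GAS5, and Axin1+ replicate 2 lies 1.02, 0.73 and 0.40 above it.

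The genes around each locus were read to see whether whole regions differed between the labels. Over the 40 nearest tested genes the median log2 fold change was -0.32 around MALAT1, with 9 called, and -0.32 around NEAT1, with 8 called. These windows share most of their genes, and every called gene in them was lower, against 19.2% of all tested genes called and 8.77% called lower. Around SNHG1 the median was -0.27, with 7 called, all lower, and SNHG1 lay only -0.14 from it. Its nearest neighbours had similar values, -0.41 for WDR74 (adjusted p = 0.131) and -0.40 for SLC3A2 (adjusted p = 0.166), an amino acid transporter gene that starts 188 bases away. FRMD8, beside NEAT1, had 0.11 (adjusted p = 0.755) and FAUP4, a pseudogene between NEAT1 and MALAT1 whose reads could be split with its parent gene, -0.08 (adjusted p = 0.862).

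Elsewhere the medians were smaller in size, and the largest of them was around IGFL2-AS1. Medians were -0.10 around H19, 0.08 around GAS5, -0.12 around MEG3, -0.03 around PVT1, 0.01 around TUG1 and 0.20 around IGFL2-AS1. Relative to these, H19 lay at -3.32, GAS5 at -1.19, PVT1 at -1.05 and IGFL2-AS1 at 5.17. In the 20 genes nearest IGFL2-AS1 the median was 0.245, with quartiles of 0.156 and 0.364. Of each 40 neighbours, 10 were called around H19 (7 lower), 7 around GAS5 (3 lower) and 3 around MEG3 (2 lower). Around PVT1 7 were called (1 lower), around TUG1 1 (0 lower) and around IGFL2-AS1 5 (1 lower). Of all tested genes 19.2% were called, 8.77% lower. ZBTB37, whose span overlaps that of GAS5, had -0.02 (adjusted p = 0.951). WDR25, on the near side of MEG3, had -0.29 (adjusted p = 0.228).

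**Figure D4:**
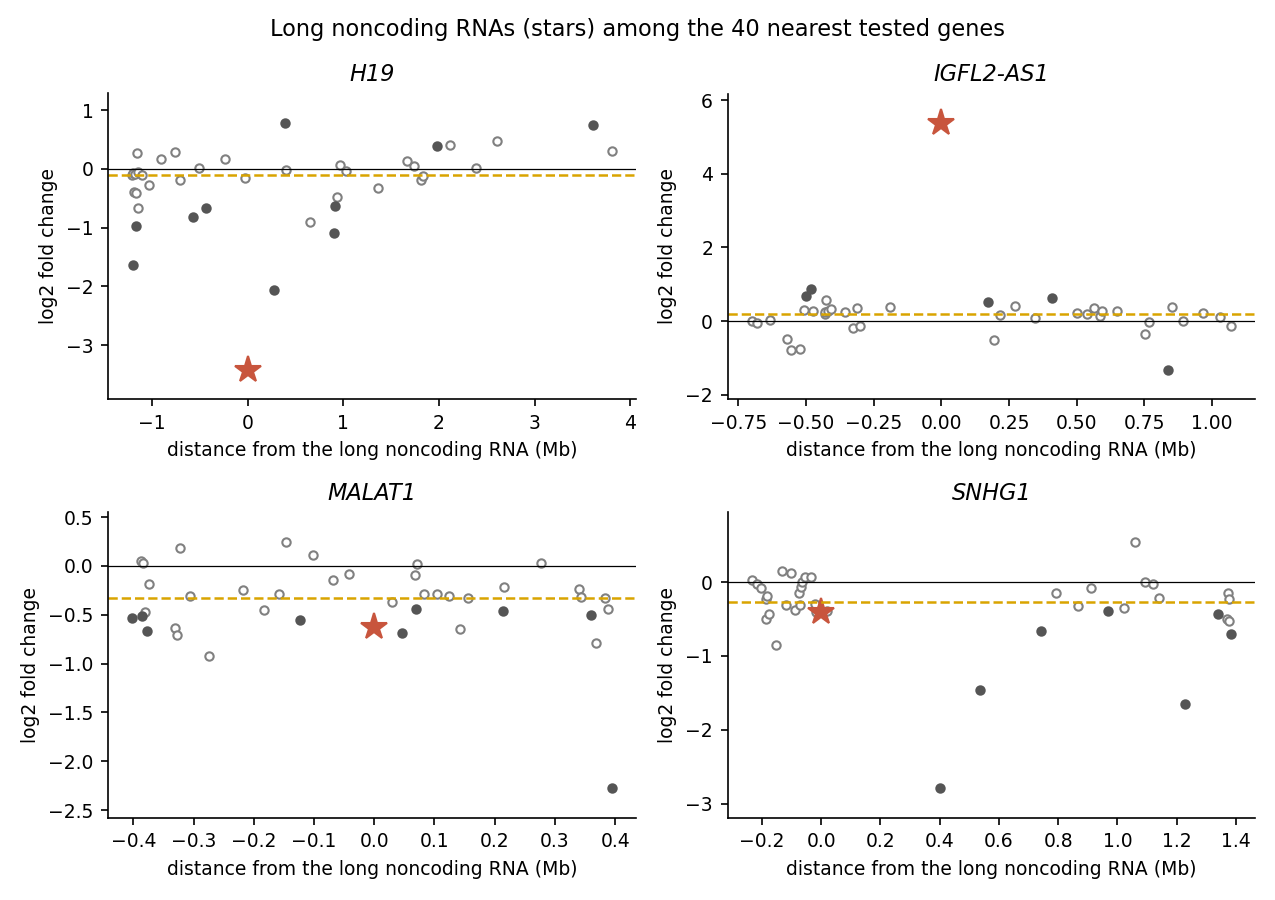
Log2 fold change (vertical axes) of H19, IGFL2-AS1, MALAT1 and SNHG1 (stars) and of the 40 tested genes nearest to each (circles, filled where the adjusted p is under 0.05), by distance in megabases; dashed lines give the medians of the neighbours. H19 and IGFL2-AS1 lie outside all of their neighbours, with ASCL2 (-2.06) the nearest in value to H19, whereas MALAT1 and SNHG1 lie among theirs.

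The series concerns Wnt signalling, whose nuclear factors of the TCF/LEF family bind DNA, so promoters were read for their core letters. Windows of 300 bases, 250 before and 50 from the RefSeq start (GRCh38.p14), were held for 6 of the long noncoding RNAs, namely H19, MALAT1, SNHG1, GAS5, MEG3 and TUG1. None of the 6 held, on either strand, CTTTGAA or the same run ending in AT, TA or TT instead of AA, beside 13.8% of all 35116 windows. The E-box CACGTG, a motif bound by MYC among others, was found only in that of TUG1, 77 bases before the start, beside 7.26% of all windows. NEAT1, PVT1, IGFL2-AS1 and HULC had no window, and that of GAS5 lies wholly upstream of its GENCODE gene.

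For each tested RNA, the genes with the most similar log2 CPM over the 8 libraries were ranked by Pearson's r among tested genes of at least 1 CPM. These values run over both labels, so a difference between the labels enters them. They are also the highest among very many genes over only 8 libraries, where some high r can arise by chance. Whether any exceeds that was not tested. IGFL2-AS1 was most like CNTNAP3B (0.998), whose reads could be split with near-identical copies, and CCK (0.993), which encodes the hormone cholecystokinin and rose from 0.890 to 21.1 CPM. H19 was most like APOC1P1 (0.971), a pseudogene in the apolipoprotein cluster, and TF (0.970), which encodes the plasma protein transferrin. PVT1 was most like a gene without a symbol, ENSG00000237550 (0.997), and TMEM141 (0.992).

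SNHG1 was most like PPM1G (0.993), a phosphatase gene, and SDC4 (0.987), and GAS5 was most like MPHOSPH8 (0.985) and ZMYND8 (0.982), which encode chromatin readers. NEAT1 was most like PNISR (0.992), a nuclear serine/arginine-rich protein gene, and ARID4A (0.986), and MALAT1 was most like RRBP1 (0.983) and the ribosomal protein gene RPL31 (0.983). TUG1 was most like ENSG00000233785 (0.973) and NIPBL (0.935), which encodes the cohesin loader.

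Among 52 further long noncoding RNAs known from cancer, 31 were tested and 9 were called (29%; 6 higher and 3 lower), with a median of 0.06, against 19.2% of all tested genes and 12.2% of the long noncoding ones. UCA1, first described in bladder cancer, stood at 167, 50.6, 49.1 and 18.9 CPM in the parental and at 411, 614, 298 and 321 CPM in the Axin1+ libraries. Its ranges did not overlap, and it rose by 2.53 on the log2 scale (SE 0.54, adjusted p = 0.010). LINC01234 rose by 3.22 (SE 0.68, adjusted p = 0.0094), from 5.07 CPM in parental replicate 1 and at most 0.624 in the other parental libraries to between 9.0 and 17.5 CPM in the Axin1+ ones. VPS9D1-AS1 fell from 19.6 ± 5.65 to 6.09 ± 2.53 CPM (-1.68, SE 0.30, adjusted p = 0.0037), without overlap. Without Axin1+ replicate 4 the count was 5.

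**Figure D5:**
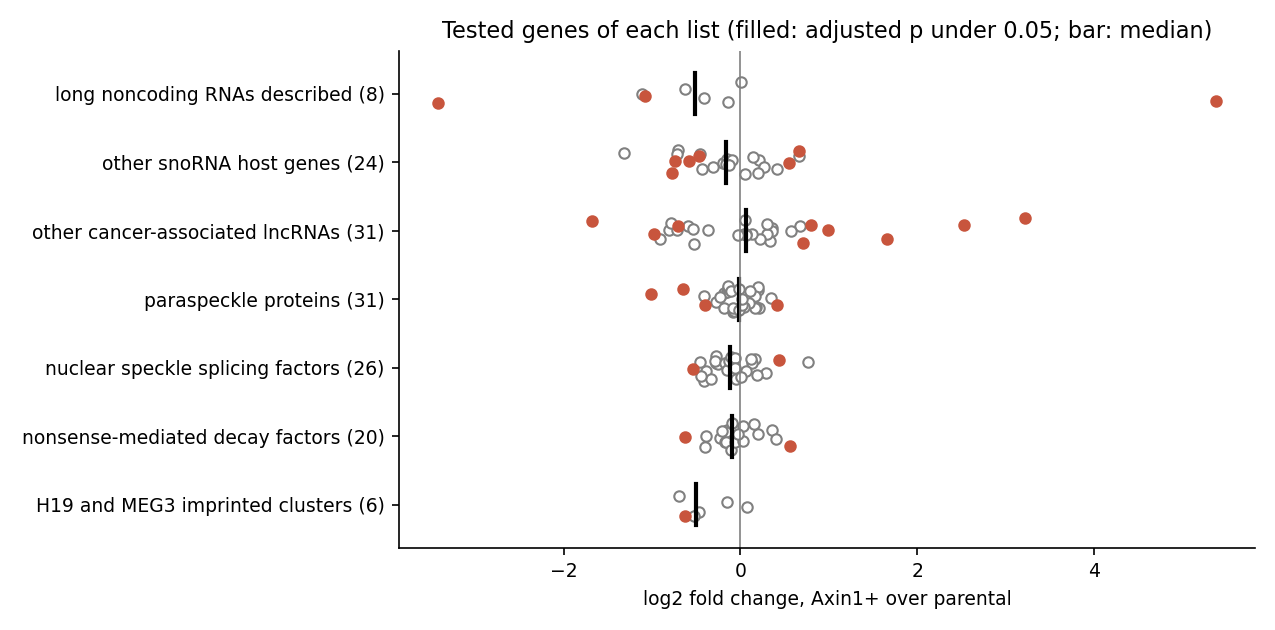
Log2 fold change (horizontal axis, Axin1+ over parental) of every tested gene in the long noncoding RNAs described and in 6 lists of related genes, with the number tested in brackets; filled points have an adjusted p under 0.05 and bars give medians. IGFL2-AS1 (5.37) and H19 (-3.42) are the farthest points on each side of the plot, and the protein lists lie close around medians of -0.02 to -0.12.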

How the data were processed

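RNA of 8 samples was made into libraries with an mRNA kit, per the labels' protocols. The values used are raw counts for each gene, deposited as the authors made them from the reads and not normalized; per the submitters' processing notes the tools were bcl2fastq, fastp 0.23.1 and STAR 2.7.4 on GRCh38. The counting program, annotation and strand setting are not given in the sources used here. Groups and replicate numbers came from sample titles, and 0 columns belonged to no sample.

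Identifiers were matched to GENCODE 29 (57943 of 58206 found) and to a symbol table (57495 found). Counts were tested in R 4.3.3 with the edgeR 4.0.16 quasi-likelihood test on all 8 libraries without covariates, after filterByExpr (minimum count 10, minimum total 15) and TMM scaling. P-values were two-sided and Benjamini-Hochberg adjusted over 14289 genes. The SE of a log2 fold change is its size divided by the square root of the F statistic. Log2 CPM used a prior count of 2. Libraries of a label differed by more than sampling noise (chi-square per degree of freedom 9.19 to 92.0), so none was merged.

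In simulated counts for this comparison, on 14289 genes, edgeR recovered 59.6% of the 99 2-fold changes and 92.7% of the 96 4-fold changes. Of 163 edgeR calls 9.20% were false, and of 201 DESeq2 calls 18.4%. Few genes were changed in the simulation beside the 2738 called in the data, so these false shares need not hold there. Alternatives included DESeq2 1.42.0 and limma-voom (limma 3.58.1), scaling, filters, thinning, a replicate block and leaving out each library.

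Named genes were AXIN1, the long noncoding RNAs, 3 genes of smallest p-value per list with a mean of at least 1 CPM, the nearest tested gene on each side, and the 2 most correlated genes; 3 genes that this rule names are not reported here. The long noncoding RNAs and lists were chosen with earlier results of these data known. In the paraspeckle list the symbol MATR3 belongs to more than 1 identifier, and the one matched (97 counts in all) was not tested.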

Additional observations from a re-analysis of the deposited data

Results flagged for a closer look

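In 7 of 56 sets of 4 libraries examined, 1 library lay far from the others of its label by Dixon's test. Chance gives about 1 in 20 for independent sets of normally distributed values, but these sets share the same libraries. In Axin1+ replicate 2, MALAT1 stood at 5645 CPM against 2426 for the next library and NEAT1 at 1642 against 850. In parental replicate 1, GAS5 stood at 553 CPM against 202 and LINC01234 at 5.07 against 0.624. In Axin1+ replicate 1, MEG3 stood at 0.395 CPM against 0 in the other libraries of the label, a pattern this test always flags. SRRM2 stood there at 544 CPM against 460. In Axin1+ replicate 4, AXIN1 stood at 37.7 CPM, below the next library at 47.6. The part of these libraries in the results was not tested beyond leaving each one out.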

How the results depend on the processing

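H19 and IGFL2-AS1 were called with the same sign in all 19 alternatives (log2 fold changes -4.15 to -2.70 and 4.97 to 5.54), thinning to the smallest library included. PVT1 was called in all but an adjusted p under 0.01 (-1.21 to -0.90). SNHG1 and GAS5 each passed in 4 alternatives, GAS5 also with no expression filter (-1.07). Leaving out 1 library turned the sign of values that were never called: MALAT1 ran from -1.10 to 0.023 and NEAT1 from -0.45 to 0.36, both positive without parental replicate 1 only, and TUG1 from -0.081 to 0.098, negative without parental replicate 4 or Axin1+ replicate 1, 2 or 4; the cause was not tested. NEAT1 also turned, to 0.043, without both parental replicate 1 and Axin1+ replicate 2. With prior count 0.5 the gene most like H19 was MAGOH (0.970).

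Leaving out 1 library gave 1394 to 3523 genes called (1508, 1531 and 1394 without parental replicate 2, Axin1+ replicate 3 and Axin1+ replicate 4), 3 to 4 of the long noncoding RNAs, 2 to 6 snoRNA host genes, 5 to 11 further cancer RNAs, 1 to 6 paraspeckle proteins, 0 to 4 speckle factors, 0 to 3 decay factors and 0 to 2 imprinted genes. At an adjusted p under 0.01, 964 genes were called, with 2 further cancer RNAs, 1 paraspeckle protein and 0 speckle factors, decay factors, snoRNA host genes or imprinted genes (edgeR; at an unadjusted p under 0.05 there were 6, 4, 11 and 2; DESeq2 called 5, 2, 7 and 1 and limma-voom 3, 2, 6 and 1 at the threshold of 0.05). Speckle factors called were 1 with upper-quartile scaling and 5 with DESeq2, and paraspeckle proteins 2 with no expression filter. DESeq2 called 5 of the long noncoding RNAs. Without both parental replicate 1 and Axin1+ replicate 2, chosen after seeing the data, 5 long noncoding RNAs, 4 decay factors and 2 imprinted genes were called. Scaling by total counts only moved the share of higher calls from 54.2% to 66.5%.

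Over all tested genes, deviations of same-numbered libraries gave r of -0.063, 0.0067, -0.032 and 0.227. Differently numbered ones ran from -0.425 to 0.448, so this check cannot tell whether the numbers pair libraries. For H19 the block gave -3.23 with an SE of 0.27 (edgeR adjusted p = 0.00057), against an SE of 0.69 without it. With the replicate number as a block, 2033 genes were called, with 3 of the long noncoding RNAs, 1 speckle factor, 1 paraspeckle protein and 0 imprinted genes (edgeR; counts at an unadjusted p and by other tools are those above). MEG3 had at most 11 counts in a library.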
